A study of Mus musculus with 8 samples.

Results

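The 42 genes described here mark the neurons and glia that surround brain vessels: 20 mark neurons, 16 mark astrocytes and the radial glia that precede them, and 6 mark the oligodendrocyte lineage. They were measured in microvessel fragments, a preparation meant to hold endothelial cells and pericytes, and were chosen as a list of named genes, each read by the probe set that was brightest on average, out of 18194 genes with a probe set of their own. Vessel fragments were pulled with anti-PECAM magnetic beads from dissociated brains at postnatal day 1 and hybridised singly to 1-colour Affymetrix arrays, 1 array per brain. The 4 mutant brains carried a knock-in of PDGFRb with the D849V substitution, described in the labels as constitutively active in pericytes. The 4 control brains were wild type, and all 8 mice were of mixed 129S/J background. The labels do not say whether the knock-in was heterozygous, and they give no litter or day of preparation. Values are log2 expression as the authors made them with GCRMA, with a floor near 2.18. A level on the array cannot tell fewer cells of a type from less RNA per cell.

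Neurons of the newborn brain are still growing axons and forming synapses, so genes of the growing cytoskeleton are among their main transcripts. Radial glia are the stem cells that line the ventricles and turn into astrocytes around birth, and astrocytes then send endfeet to the vessel wall, where they insert the water channel Aqp4. Oligodendrocyte precursors are present at birth, while myelin is made mostly later.

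Of the 42 genes, 38 were tested, meaning that they read above a log2 value of 4 on at least 4 of the 8 arrays. The 4 others were Slc17a7, the vesicular glutamate transporter of mature cortical synapses (2.18 to 2.38 over the 8 arrays), Slc32a1, the vesicular GABA transporter (3.01 to 3.44), Tbr1, a transcription factor of deep-layer cortical neurons (2.39 to 3.42), and Ntsr2, an astrocyte receptor (2.57 to 4.40). Of the vessel wall's own markers, all 15 endothelial genes tested and 10 of 12 pericyte genes read above 8 on every array. The endothelial gene Pecam1, whose protein the beads bind, read 9.09 to 11.27, and the pericyte gene Rgs5 read 14.37 to 14.83. The pericyte gene Pdgfrb, altered in the mutants, read 11.56 to 12.06 in the mutants and 12.80 to 12.92 in the controls. Its difference was -1.01 on the log2 scale (limma adjusted p = 0.00132). Of the 15 endothelial differences 14 were negative. At a limma adjusted p under 0.05, 2 endothelial genes were lower, and of the 12 pericyte genes 1 was lower and 1 higher. Over all tested genes 1.92% were lower and 2.66% higher. The 2 low pericyte genes were Anpep (3.51 to 4.55) and Des (4.97 to 5.87). Of 11 microglia markers tested, all had a positive difference (median 2.21 on the log2 scale) and 10 were higher in the mutants at a limma adjusted p under 0.05, against 2.66% of all tested genes called higher. Pearson correlations over all probe sets were 0.988 to 0.995 between arrays of a group and 0.977 to 0.991 between arrays of different groups.

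None of the 38 genes passed the test between mutants and controls. With p-values from limma adjusted over all 11446 tested genes by the Benjamini-Hochberg method, 0 of the 38 were under 0.05, against 4.58% of all tested genes, and 2 had an unadjusted p under 0.05, against 20.6% of all tested genes. The median difference, mutant minus control on the log2 scale, was 0.17 over the 17 neuron genes, 0.13 over the 15 astroglial genes and 0.09 over the 6 oligodendrocyte genes, while that of all tested genes was -0.11. Positive differences were found in 29 of the 38 genes, a share that was not counted over all tested genes. The genes moved together across arrays, so these are not separate signs. Without mutant array 1 and control array 2, a choice made after the values were seen, 27 were positive and 11 negative. Of the neuron genes 8 were then positive and 9 negative. Groups did not overlap in 1 of the 38 genes, Stmn2, against 14.5% of all tested genes, and 4.07% counting only those higher in the mutants as Stmn2 was.

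These genes spread widely between arrays of the same group. The median within-group SD was 0.55 on the log2 scale for the neuron genes, 0.51 for the astroglial genes and 0.60 for the oligodendrocyte genes, against 0.21 over all tested genes. Of the 38 genes, 25 lay in the top 10% of tested genes by this SD and 31 in the top 25%. The exceptions below the median of all genes were Glul, Gad2 and Apoe. These shares are given without a test, as the genes varied together across arrays.

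The spread had the same shape in most of the genes. Among the mutants, array 1 alone was the lowest in 33 of the 38 genes, and tied with array 3 in Sox10, and array 4 was the highest in 31. Over all tested genes, mutant array 1 alone was lowest in 44.3% and mutant array 4 highest in 33.1%. Among the controls, array 2 was lowest in 29 of the 38 genes, against 33.7% of all tested genes. Mutant array 1 was the lowest mutant for 14 of 17 neuron genes, 14 of 15 astroglial genes and 5 of 6 oligodendrocyte genes. Control array 2 was the lowest control for 15 neuron genes and 12 astroglial genes, but for only 2 of the 6 oligodendrocyte genes.

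**Figure D1:**
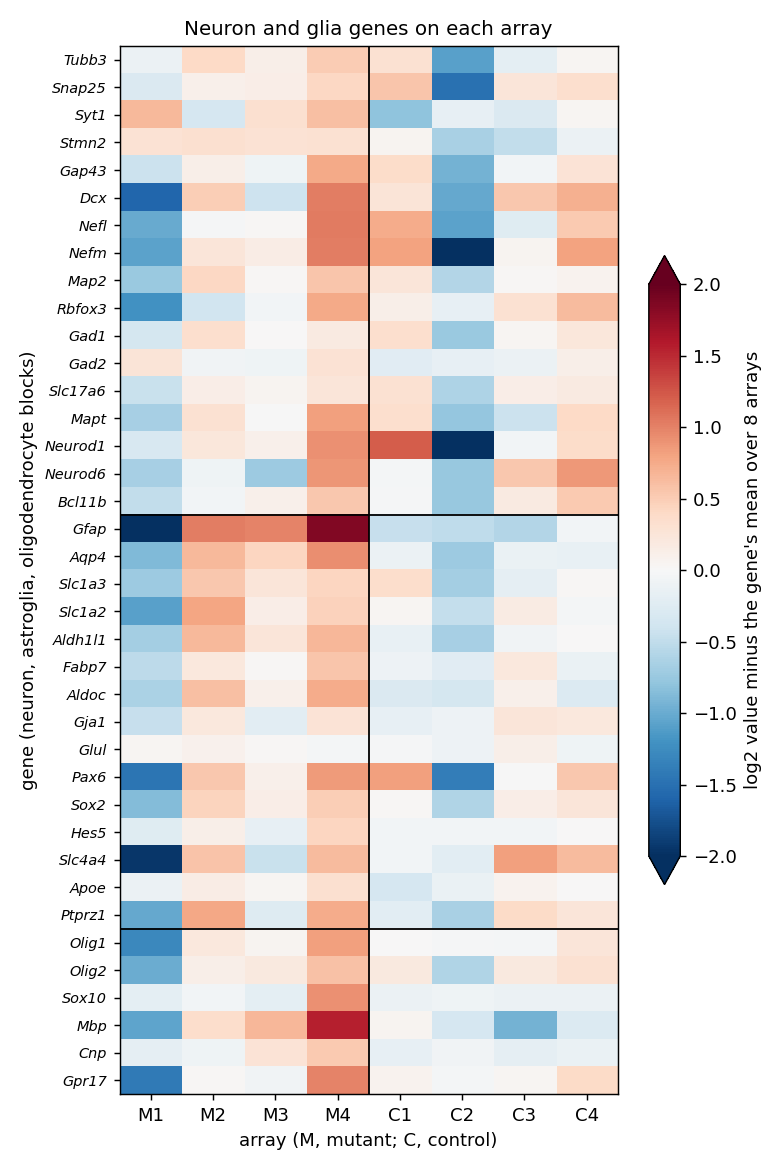
Log2 value of each of the 38 tested genes on each array (columns M1 to M4, mutant; C1 to C4, control), minus the gene's mean over the 8 arrays; colours beyond 2 either way are capped. Blocks from the top are neuron, astroglial and oligodendrocyte genes. Mutant array 1 is blue in nearly every row and mutant array 4 red, while control array 2 is blue mostly in the upper blocks.

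Averaged over the genes of a class, each centred on its own mean, the neuron genes stood at -0.48, 0.13, 0.00 and 0.64 on mutant arrays 1 to 4. On control arrays 1 to 4 they stood at 0.27, -0.91, 0.01 and 0.35. Control array 2 was therefore the lowest of all for neuron genes. The astroglial genes stood at -0.86, 0.49, 0.09 and 0.62 on the mutant arrays and at -0.05, -0.46, 0.08 and 0.08 on the control arrays. The oligodendrocyte genes ran from -0.85 on mutant array 1 to 0.90 on mutant array 4, while the controls lay between -0.20 and 0.07. Glial genes thus covered a wider range among the mutants than among the controls, in 14 of 15 astroglial genes and 6 of 6 oligodendrocyte genes, against 7 of 17 neuron genes and 59.4% of all tested genes.

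Other lists moved across the same arrays in their own ways. The 8 choroid plexus and ependymal markers, genes of the tissue that makes cerebrospinal fluid, were all lowest on mutant array 1 among the mutants and all lowest on control array 2 among the controls. Their mean, with each gene centred, ran from -0.98 to 0.13 in the mutants and from -0.90 to 0.74 in the controls. The log2 of their summed level, which is mostly Ttr at 16.16 to 16.49, ran from 16.33 to 16.52 and from 16.21 to 16.59. The 15 endothelial markers pointed the other way for mutant array 4, which was the lowest mutant for 12 of them. Their log2 summed level was 16.36 on that array and 16.59 to 16.68 on the other mutants, and 16.73 to 16.89 in the controls. The 11 microglia markers were highest on mutant array 1 in 8 genes and lowest on mutant array 4 in all 11, and control array 2 was the lowest control for 9, with a log2 summed level of 13.39 to 14.27 in the mutants and 11.46 to 12.27 in the controls. Of the 12 pericyte markers, 9 were lowest on mutant array 1 among the mutants and 9 were highest on control array 2 among the controls. Itgam and Trem2 of the microglia list were below the filter. The part of these other cells in the values of neuron and glia genes was not tested.

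**Figure D2:**
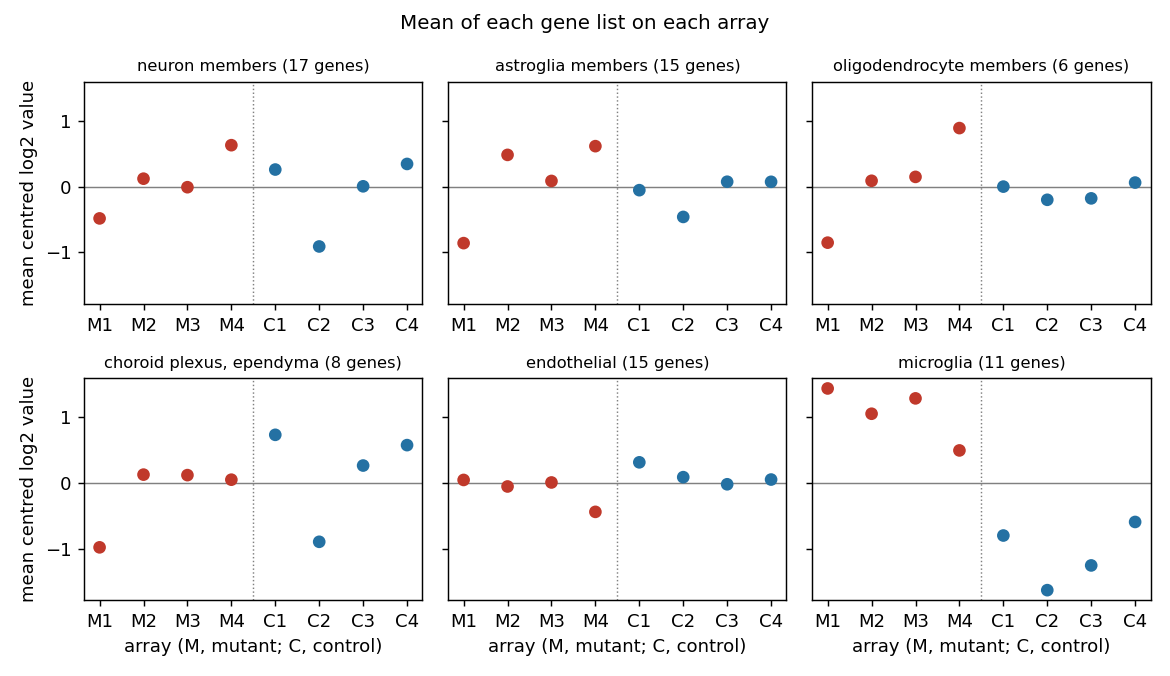
Mean of each gene list on each array, in log2 units, with every gene centred on its mean over the 8 arrays; red points are mutant arrays and blue points control arrays. The 3 upper panels and the choroid plexus panel dip at M1. The neuron, astroglial and choroid plexus panels also dip at C2, where the oligodendrocyte genes (-0.20) lie close to C3 (-0.17). The microglia panel separates the groups.

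Among genes of the neuronal cytoskeleton, Dcx, a microtubule-binding protein of migrating neurons, read 6.04, 8.12, 7.21 and 8.65 on mutant arrays 1 to 4 and 7.89, 6.60, 8.17 and 8.33 on control arrays 1 to 4. The lowest array of each group was more than 1 log2 unit below the next, and the groups overlapped (difference -0.24, SE 0.59, adjusted p = 0.845). Nefm, the medium neurofilament chain, read 5.28, 6.60, 6.49 and 7.38 in the mutants and 7.16, 4.34, 6.40 and 7.15 in the controls, a range of 8.20-fold between single brains. Its light-chain partner Nefl had the same lowest array in each group and ranged from 5.77 to 7.88. Map2, a dendritic microtubule protein, read 9.35, 10.51, 10.11 and 10.64 in the mutants and 10.32, 9.49, 10.11 and 10.15 in the controls (difference 0.13, SE 0.30). The axonal protein gene Mapt, the growth cone gene Gap43 and the neuronal tubulin Tubb3 also had their lowest value on control array 2. Tubb3 read 8.44, 8.95, 8.67 and 9.06 in the mutants and 8.85, 7.47, 8.36 and 8.60 in the controls (difference 0.46, SE 0.29, adjusted p = 0.397).

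Stmn2, a tubulin-binding protein of growing axons, differed from its neighbours. Its brighter probe set read 9.96, 9.99, 9.96 and 9.97 in the mutants and 9.72, 9.02, 9.18 and 9.56 in the controls. The 4 mutant values lay within 0.03 of each other (9.97 ± 0.01, SD, n = 4) while the controls spread over 0.71 (9.37 ± 0.33, SD, n = 4). The difference of 0.60 (SE 0.15, 95% interval 0.25 to 0.95) missed the threshold (limma adjusted p = 0.073). Without control array 1 it was 0.72 and passed (adjusted p = 0.0339), and without any other single array it did not pass, with adjusted p from 0.105 to 0.181. A second quantile normalization (0.64, adjusted p = 0.0379, with 4.27% of all tested genes called) and array weights (0.55, adjusted p = 0.00984, with 27.6% called) also brought it past the threshold. A second probe set of Stmn2 followed the shared pattern, with 8.70, 9.18, 8.95 and 9.30 in the mutants and 9.16, 7.70, 8.72 and 9.04 in the controls, and its difference was 0.38 (adjusted p = 0.568 over all probe sets).

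Genes of transmitter release and synthesis were mixed. Snap25, a membrane fusion protein of nerve terminals, read 6.37 to 7.06 in the mutants and 7.21, 5.16, 6.89 and 6.98 in the controls, with control array 2 far below the rest. Syt1, the calcium sensor of synaptic vesicles, read 7.25, 6.26, 6.92 and 7.20 in the mutants and 5.79, 6.44, 6.31 and 6.63 in the controls (difference 0.62, SE 0.26, adjusted p = 0.223). Mutant array 1 was the highest here, and the order was different on a second probe set, where it read 5.44 and the other mutants 6.27 to 6.53, with a difference of -0.08. The second probe set of Syt1 thus did not show the positive difference of the brighter one (limma adjusted p = 0.920 over all probe sets). Gad1 and Gad2 make GABA. Gad1 followed the shared pattern (7.16 on control array 2, 7.94 to 8.24 on the other controls), while Gad2 stayed between 5.29 and 5.81 on all 8 arrays. Slc17a6, the glutamate transporter of subcortical and immature neurons, read 5.92 to 6.60 in the mutants and 5.74 to 6.67 in the controls (difference 0.00, SE 0.23).

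Nuclear proteins of particular neurons included the most variable of the neuron genes. Neurod1, a transcription factor of newborn neurons, including cerebellar granule neurons, read 7.62, 8.16, 8.04 and 8.86 in the mutants and 9.15, 5.50, 7.88 and 8.31 in the controls. Its 2 extreme arrays were both controls, 12.6-fold apart, so that the difference of 0.46 had an SE of 0.70 and turned to -0.28 without control array 2. The second probe set of Neurod1 gave the same lowest and highest array, 5.77 and 8.81. Neurod6, a transcription factor of forebrain glutamatergic neurons, had another order: 5.33, 5.91, 5.26 and 6.87 in the mutants and 5.95, 5.23, 6.53 and 6.85 in the controls, so that control array 1, the highest for Neurod1, was here the second lowest control. Bcl11b, found in subcortically projecting and striatal neurons, was again lowest on control array 2, and its difference was 0.04 (SE 0.30). Rbfox3, the neuronal antigen NeuN, had the most negative difference of the neuron genes (-0.44, SE 0.38, adjusted p = 0.535), with 6.68 on mutant array 1 and 7.50 to 8.65 elsewhere.

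Among the astroglial genes, the result depended on mutant array 1. With all 8 arrays none passed; without that array 2 of the 15 did, Gfap and Aqp4, both higher in the mutants, against 3.66% of all tested genes called in that setting and 2.41% called higher. The array left out held the lowest mutant value in 14 of the 15 genes, so the differences had to rise in these genes, as they did, and the median went from 0.13 to 0.47. Unadjusted p under 0.05 was then reached by 5 of the 15 astroglial genes, 2 of the 6 oligodendrocyte genes and 1 of the 17 neuron genes, all higher in the mutants, against 5.84% of all tested genes higher at that level.

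Gfap, the intermediate filament of astrocytes that increases when they become reactive, read 2.86, 6.15, 6.11 and 6.98 on mutant arrays 1 to 4 and 4.66, 4.62, 4.54 and 5.07 on the controls. Mutant array 1 was the lowest of all 8 arrays, near the floor, and the other 3 mutants were above every control. With all arrays the difference was 0.80 (SE 0.78, 95% interval -0.98 to 2.59, limma adjusted p = 0.587). Without mutant array 1 it was 1.69 (SE 0.24, limma adjusted p = 0.00885), a 3.23-fold higher level at 6.41 ± 0.49 (SD, n = 3) against 4.72 ± 0.24 (SD, n = 4). Both dimmer probe sets of Gfap stayed under the filter. On the brighter of these the mutants read 2.35, 3.36, 4.40 and 5.04 and the controls 2.59 to 3.39, and on the dimmest mutant array 4 alone exceeded 4, at 4.29.

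Aqp4 read 8.42, 9.94, 9.73 and 10.21 in the mutants and 9.17, 8.56, 9.16 and 9.14 in the controls. The same 3 mutants lay above every control, and mutant array 1 lay below every control. The difference was 0.57 with all arrays (SE 0.37, adjusted p = 0.411) and 0.95 without mutant array 1 (SE 0.19, limma adjusted p = 0.0405), or 1.93-fold. A second probe set of Aqp4 read 6.21, 8.50, 8.06 and 7.97 in the mutants and 7.45, 6.35, 6.69 and 6.69 in the controls. Its difference was 1.38 without mutant array 1, with an adjusted p of 0.0542 over all probe sets. On that basis Aqp4 itself, at its brighter probe set, had an adjusted p of 0.0611 and Gfap of 0.0144. Aldh1l1, a folate enzyme that marks astrocytes, also had 3 mutants above every control without mutant array 1 (7.28, 8.61, 8.19 and 8.62 against 7.80, 7.29, 7.88 and 7.97) and did not pass there (difference 0.74, adjusted p = 0.0988). In that setting 5 of the 38 genes did not overlap between groups, namely Stmn2, Gfap, Aqp4, Aldh1l1 and Mbp, all higher in the mutants. Over all tested genes 17.2% did not overlap in either direction, and the share of those higher was not counted there. The 17.2% holds both directions, so it is not a like share for genes that were all higher. With all 8 arrays 14.5% did not overlap in either direction, and 4.07% did not overlap and were higher.

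**Figure D3:**
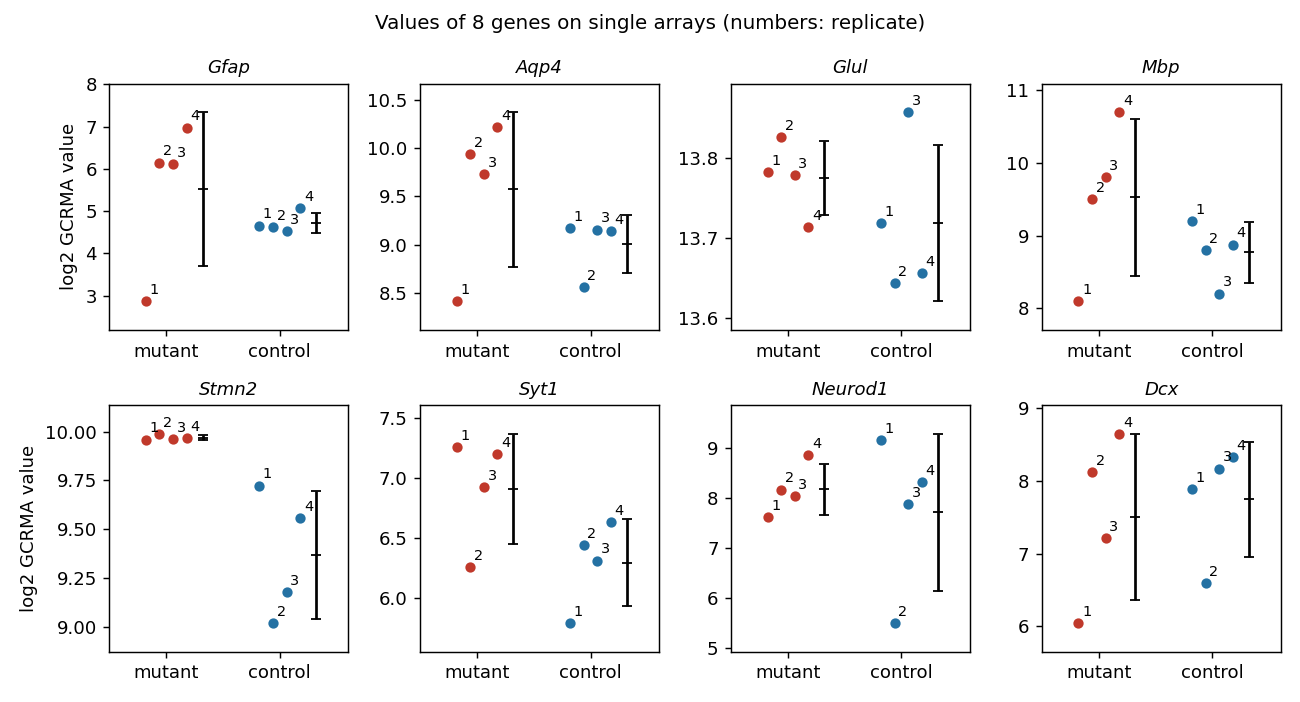
Log2 values of 8 genes on single arrays, with replicate numbers beside the points; red is mutant, blue is control, and the black bars give the mean ± SD of 4 arrays. The vertical scale differs between panels and does not start at 0. Mutant array 1 falls to 2.86 for Gfap and 8.42 for Aqp4, below every control, while Stmn2 is the gene whose groups do not overlap.

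The glutamate transporters Slc1a3 and Slc1a2, which clear glutamate from synapses, had differences of 0.24 and 0.15 with all arrays and 0.52 and 0.54 without mutant array 1 (adjusted p = 0.297 and 0.227). Aldoc, a glycolytic enzyme of astrocytes, read 9.90, 11.14, 10.64 and 11.28 in the mutants and 10.25, 10.19, 10.64 and 10.27 in the controls, and moved from 0.40 to 0.68 (adjusted p = 0.452 and 0.107). Slc4a4, the astrocyte bicarbonate cotransporter, read 6.56, 9.08, 8.06 and 9.15 in the mutants and 8.46, 8.30, 9.33 and 9.14 in the controls. Its difference was the most negative of the 38 genes (-0.59, SE 0.56, adjusted p = 0.572), and it shrank to -0.04 without mutant array 1. The 3 dimmer probe sets of Slc4a4 that passed the filter differed by -0.61, -0.55 and 0.01, so the negative difference was not seen on all of them.

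None of 5 genes known from radial glia and neural progenitors, Fabp7, Pax6, Sox2, Hes5 and Ptprz1, passed the test with all arrays or without mutant array 1. Fabp7, the fatty acid-binding protein of radial glia, read 14.06, 14.79, 14.60 and 15.14 in the mutants and 14.47, 14.35, 14.80 and 14.45 in the controls (difference 0.13, 95% interval -0.37 to 0.63). Pax6, a transcription factor of cortical radial glia and of cerebellar granule neurons, read 4.92, 6.91, 6.48 and 7.22 in the mutants and 7.20, 4.99, 6.37 and 6.92 in the controls. Its order among the controls, array 1 highest and array 2 lowest, was that of Neurod1, and its difference was 0.01 (SE 0.60). Sox2, which maintains neural stem cells, read 9.38 to 10.74 in the mutants and 9.65 to 10.50 in the controls. Hes5, a Notch target of progenitors, was between 7.37 and 7.43 on all 4 controls and between 7.18 and 7.86 in the mutants. Ptprz1, a receptor phosphatase of radial glia, ranged from 8.76 on mutant array 1 to 10.57 on mutant array 2.

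Glul and Apoe were the astroglial genes with the least spread. Glul, glutamine synthetase, read 13.78, 13.83, 13.78 and 13.71 in the mutants and 13.72, 13.64, 13.86 and 13.66 in the controls, a range of 0.21 over 8 arrays. It did not dip on mutant array 1, its within-group SD of 0.08 stood at percentile 4.93 among all tested genes, and its difference was 0.06 (95% interval -0.13 to 0.24). Gja1, a connexin of gap junctions, read 13.85, 14.51, 14.10 and 14.58 in the mutants and 14.14, 14.20, 14.54 and 14.51 in the controls (difference -0.09, SE 0.18). Apoe, the lipid carrier of astrocytes that microglia and mural cells also make, read 13.29, 13.56, 13.45 and 13.74 in the mutants and 13.07, 13.27, 13.48 and 13.42 in the controls (difference 0.20, SE 0.13, adjusted p = 0.416).

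The 250 bases before the start of each gene were searched for letters of 5 motifs on both strands. These were the TATA box (TATAAA), the E-box (CANNTG), which Neurod and Olig proteins bind, the SOX motif (AACAAT), GAS (TTCNNNGAA), which STAT proteins bind, and ISRE (GAAA, any 2 bases, then GAAA), which interferon regulatory factors bind. None of the 5 contains another. RefSeq promoter sequences of build GRCm38.p6 were matched for 31 of the 42 genes, with 39 windows. The ISRE letters were in 1 window, that of Glul, against 2.98% of all 32851 windows. The GAS letters were in 3 windows, of Aldoc, Ntsr2 and Slc1a3, against 7.02% of all windows. An E-box was in 23 of the 39 windows (59.0%) and in 66.2% of all windows. The SOX letters were in 2 windows and in 9.42% of all windows, and the TATA box in 6 windows and in 12.4%. Glul and Slc1a3 are printed because they hold the ISRE and GAS letters, Gfap because its call turned on a single array, and Neurod1 because it ranged most among the neuron genes. Letters of any of the 5 motifs are in capitals, each sequence is on the strand of its gene, and a match is only a match of letters.
Gfap, chr11:102897201-102897450, minus strand: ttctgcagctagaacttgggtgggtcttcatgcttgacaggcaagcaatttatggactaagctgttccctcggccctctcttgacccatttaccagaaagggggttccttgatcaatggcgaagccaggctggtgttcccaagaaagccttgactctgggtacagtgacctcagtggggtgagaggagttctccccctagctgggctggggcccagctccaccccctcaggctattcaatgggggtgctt
Glul, chr1:153899679-153899928, plus strand: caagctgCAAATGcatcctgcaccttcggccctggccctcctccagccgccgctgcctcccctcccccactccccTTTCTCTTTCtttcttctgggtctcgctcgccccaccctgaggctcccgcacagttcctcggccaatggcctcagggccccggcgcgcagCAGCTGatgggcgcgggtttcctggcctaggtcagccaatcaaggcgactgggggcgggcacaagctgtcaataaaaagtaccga
Neurod1, chr2:79456637-79456886, minus strand: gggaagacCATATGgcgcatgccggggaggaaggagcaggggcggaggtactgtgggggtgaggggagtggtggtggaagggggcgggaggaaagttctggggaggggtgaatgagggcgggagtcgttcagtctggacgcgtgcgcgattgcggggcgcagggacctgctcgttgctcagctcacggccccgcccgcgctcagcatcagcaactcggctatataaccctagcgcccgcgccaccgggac
Slc1a3, chr15:8710808-8711057, minus strand: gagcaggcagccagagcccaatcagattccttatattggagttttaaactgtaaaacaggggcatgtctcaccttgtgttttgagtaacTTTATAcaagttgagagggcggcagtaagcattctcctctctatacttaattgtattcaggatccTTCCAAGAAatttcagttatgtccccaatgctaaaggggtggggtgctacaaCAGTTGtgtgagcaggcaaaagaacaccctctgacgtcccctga
The Gfap window holds none of the 5, and the Glul window, with the ISRE letters on its other strand, belongs to a gene whose groups differed by 0.06.

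Each of the 6 oligodendrocyte genes covered a wider range among the mutants than among the controls. Mbp, a protein of compact myelin, read 8.09, 9.50, 9.80 and 10.70 in the mutants and 9.19, 8.80, 8.20 and 8.88 in the controls. Mutant array 1 was again below every control and the other 3 mutants above every control. The difference was 0.75 with all arrays (SE 0.49, adjusted p = 0.417) and 1.23 without mutant array 1 (SE 0.33, adjusted p = 0.107), short of the threshold both times. Of the 5 dimmer probe sets of Mbp that passed the filter, 4 differed by 0.46 to 0.85 and the other by -0.25 with all arrays. Cnp, an enzyme of myelinating cells, read 10.38, 10.47, 10.83 and 11.08 in the mutants and 10.39, 10.48, 10.37 and 10.42 in the controls (difference 0.27, SE 0.15, adjusted p = 0.348).

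Of the 4 other genes, Olig1, Olig2 and Gpr17 behaved alike, and Sox10 did so only in part. Olig1, a transcription factor of the lineage, read 7.77, 9.27, 9.11 and 9.88 in the mutants and 9.02 to 9.30 in the controls. Olig2, its partner, read 5.41 to 6.99 in the mutants and 5.81 to 6.70 in the controls. Gpr17, a receptor of committed precursors, read 4.12, 5.55, 5.46 and 6.52 in the mutants and 5.60, 5.48, 5.57 and 5.92 in the controls (difference -0.23, SE 0.43). Sox10, a transcription factor of the whole lineage, read 5.05, 5.19, 5.05 and 6.15 in the mutants, with array 4 alone above the others, and 5.12 to 5.15 in the controls. Mutant arrays 1 and 3 were tied for it, as were control arrays 1, 3 and 4, so only its value on mutant array 4 stood apart. In the 4 genes the lowest and the highest mutant arrays lay on either side of the controls, though for Sox10 the lower gap was narrow (5.05 against 5.12). No difference passed, with differences from -0.23 to 0.23.

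**Figure D4:**
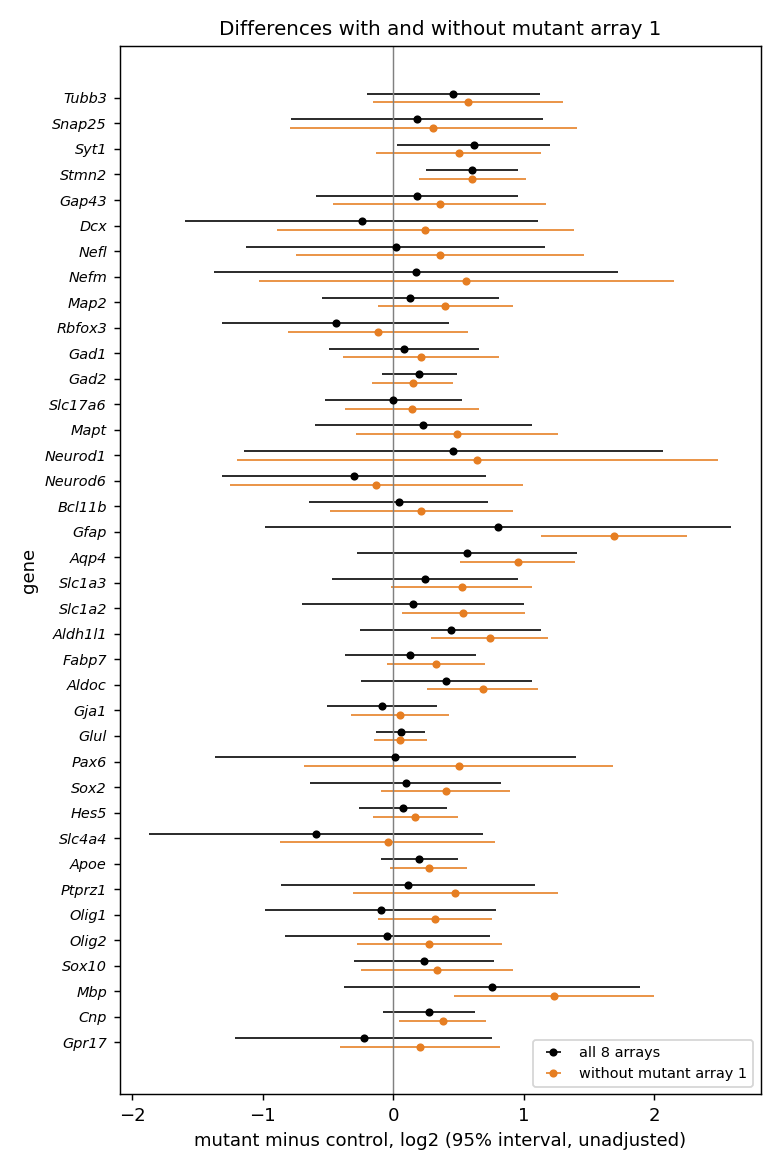
Difference between mutant and control means of the 38 tested genes on the log2 scale, with unadjusted 95% intervals, for all 8 arrays (black) and without mutant array 1 (orange). Most orange points lie to the right of the black ones, with narrower intervals for most astroglial genes, and Gfap moves from 0.80 to 1.69.

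Other neuron and glia genes, outside the 42, were looked at as a list of 65 symbols, of which 59 had a probe set of their own and 51 were tested. Of these, 1 was called higher and 1 lower in the mutants, against 2.66% and 1.92% of all tested genes. None of the 24 neuron genes passed; the 2 with the highest mean were Rtn1 (difference 0.30, SE 0.27), a reticulon of neurons, and Sox11 (0.07, SE 0.16), a transcription factor of immature neurons. Of the 19 astroglial genes, Hopx, a homeodomain protein of radial glia that other cell types also express, read 9.69, 9.96, 9.86 and 10.06 in the mutants and 9.29, 9.10, 8.95 and 9.07 in the controls. The groups did not overlap, and the difference was 0.78 (SE 0.11, limma adjusted p = 0.00495, and 0.00473 to 0.0246 without single arrays). With the replicate number as a block in the fit, Hopx was not called (limma adjusted p = 0.061). Of the 8 oligodendrocyte genes tested, Mal, a membrane protein of myelin and of several epithelia, read 9.12, 8.85, 9.12 and 9.07 in the mutants and 9.48, 10.06, 9.56 and 9.73 in the controls (difference -0.66, SE 0.14, limma adjusted p = 0.0337). Leaving out 1 array at a time, Mal passed in 2 of 8 settings, those without control array 1 or control array 2, with differences from -0.74 to -0.55 and adjusted p from 0.0378 to 0.111. With the replicate block Mal was not called either (limma adjusted p = 0.154). Control array 2, low for most neuron genes, was the highest for Mal. The mature myelin genes Mag and Mog stayed between 2.19 and 2.42 on all 8 arrays, and Mobp exceeded 3 only on mutant array 4, at 3.74.

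The shared pattern was seen in the class means of the outside genes too. Among the mutants these means were lowest on array 1, at -0.20 for neuron, -0.58 for astroglial and -0.79 for oligodendrocyte genes. They were highest on mutant array 4 (0.38, 0.29 and 0.59). Control array 2 was the lowest control at -0.46, -0.20 and -0.10. The mean of all tested genes was -0.15, 0.02 and -0.03 on these 3 arrays. Counting single genes, mutant array 1 alone was the lowest mutant in 10 of 24 neuron genes, near the 44.3% of all tested genes. It was so in 16 of 19 astroglial and 6 of 8 oligodendrocyte genes. Control array 2 alone was the lowest control in 17, 12 and 4 genes of these classes, against 33.7% of all tested genes. Without mutant array 1 and control array 2 together, a choice made after the values were seen, the median difference was -0.02 for the 17 neuron genes and 0.27 for the 15 astroglial genes among the 42, and Gfap (1.66, adjusted p = 0.0338) and Aqp4 (0.80, adjusted p = 0.0369) passed, with 2.93% of all tested genes called.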

How the data were processed

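The deposited table holds log2 expression values of 45101 probe sets on 8 arrays, which the authors computed using GCRMA (per the submitters' processing notes). No version or setting of it is given in the sources used here. GCRMA corrects background from probe sequence and normalizes by quantiles, so dim values gather at a floor and folds near it are understated. The log2 scale was read from the values (2.18 to 16.49). Arrays have no depth; 4 per group limit the precision. Platform annotation gave 1 symbol for 34958 probe sets, several for 932 and none for 9211. Each gene took its probe set with the highest mean; genes above 4 on at least 4 arrays (11446) were fitted in R 4.3.3 using limma 3.58.1 (lmFit, eBayes), with two-sided p-values adjusted by the Benjamini-Hochberg method at 0.05. Within-group SD is the residual SD of that fit. Levels of different probe sets were set side by side to choose and rank them by mean, to apply cut-offs and to sum a list. In the main fit each difference between groups was taken within 1 probe set. The members and lists were chosen with earlier results of these data known. Every array's value is given for the 3 genes of each class (2 for oligodendrocyte genes) with the highest mean, the smallest p and the largest SD; the choice of other members shown this way came after seeing their values. Of outside genes, those that passed are named, or the 2 with the highest mean. Replicate numbers were not used as pairs in the main fit. Deviations of same-numbered arrays correlated at -0.08, -0.48, -0.20 and 0.30. This cannot exclude a shared litter or day, and the labels give neither. The fit was tested on simulated data. There the noise was drawn separately for each gene and array, so the simulation did not cover genes that vary together. Alternatives were other filters, normalizations, probe set rules, weights, priors, a replicate block and each array left out.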

Additional observations from a re-analysis of the deposited data

Results flagged for a closer look

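In 82 groups of 4 values (the 38 genes and 3 class means in each genotype), 7 had a lowest or highest array far from the rest, its gap to the nearest array divided by the range of the group being above Dixon's 95% critical value for 4 values; chance gives about 1 in 20. Control array 2 was low for Snap25 (5.16, ratio 0.847), Aqp4 (8.56, ratio 0.946) and Olig2 (5.81, ratio 0.880) and above the rest for Sox10 (5.15, ratio 1.00); there the 3 other controls share the value 5.12, so the ratio is 1 by construction and the gap is 0.03. Control array 4 was high for Hes5 (7.43, ratio 0.967) and Olig1 (9.30, ratio 0.850), both within narrow control ranges. Mutant array 4 was high for Sox10 (6.15, ratio 0.877).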

How the results depend on the processing

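The count of 0 called genes among the 42 became 1 with a second quantile normalization (Stmn2, 0.64), 1 at an adjusted p of 0.10, 5 with array weights and 2 without mutant array 1 and control array 2 (a setting chosen after seeing the data); leaving out single arrays gave 0 to 2. Array weights ran from 0.357 on mutant array 1 to 6.60 on mutant array 3 and called 3158 of all tested genes; the 5 were Cnp (0.39), Stmn2 (0.55), Aqp4 (0.63), Mbp (1.03) and Neurod6 (-1.07). Genes with an unadjusted p under 0.05 numbered 1 with no filter, 1 with the replicate block, 0 with the mean of the probe sets, 9 with array weights, 7 without the 2 arrays and 1 to 8 without single arrays. The outside neuron and glia genes called, 2, became 1 with no filter, 1 with a second quantile normalization, 0 with the replicate block, 7 with array weights, 1 without the 2 arrays and 1 to 2 without single arrays. All tested genes called, 524, became 259 with the replicate block, 335 without the 2 arrays and 303 to 608 without single arrays (320 without mutant array 3, 322 without control array 3, 303 without control array 4). The block changed no call among the 42, while Hopx (adjusted p = 0.061) and Mal (adjusted p = 0.154) were not called with it. The labels do not say whether the replicate numbers pair the arrays. Without the 2 arrays the median within-group SD was 0.35 for neuron, 0.24 for astroglial and 0.36 for oligodendrocyte genes. Over all tested genes it was 0.17 in that setting. The 2 arrays held the lowest value of their group in most of these genes, so a fall was built in. With the mean of the probe sets the astroglial median SD was 0.33. Without single arrays the ranges were 0.28 to 0.56 (astroglial) and 0.37 to 0.65 (oligodendrocyte). Median differences without single arrays ran from -0.20 to 0.36 (neuron), 0.02 to 0.47 (astroglial) and -0.14 to 0.33 (oligodendrocyte).

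Among 19 named genes, 326 of 358 values kept direction and call and 22 changed direction, none of these past the threshold. Without single arrays the differences ran from -0.045 to 0.40 for Map2, -0.28 to 0.94 for Neurod1, -0.47 to 0.56 for Nefm, -0.62 to 0.24 for Dcx, -0.032 to 0.33 for Fabp7, -0.19 to 0.050 for Gja1, -0.44 to 0.50 for Pax6 and -0.60 to 0.20 for Gpr17. Without both arrays, Neurod1 was at -0.094, Nefm at -0.081 and Gpr17 at 0.15. Array weights gave -0.15 for Nefm and -0.10 for Pax6, and centring on array medians -0.014 for Pax6. Second probe sets gave -0.078 for Syt1, 0.015 for Slc4a4 and -0.25 for Mbp. Gfap and Aqp4 passed in no setting that held mutant array 1, except Aqp4 with array weights, which gave that array the lowest weight; Gfap was not tested under the stricter filter or either other probe set rule. Beyond these, the cause was not tested. Signals near the floor, as for the 4 untested genes and the dimmer Gfap probe sets, are not resolved.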
